A study of Mus musculus with 26 samples.

Results

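The regions described here are the 40-kb bins of the mouse genome that were still unreplicated in every S-phase blastomere of 1 8-cell embryo. Replication states were read by scRR-seq-DNA, in which the DNA of a single cell is amplified on beads and each bin is called replicated (1), unreplicated (-1) or without data (0). A bin was a member when its state was -1 in all 6 cells of embryo 2 that have a column in the table. Of 51976 bins on 17 chromosomes, 50126 had a state in all 6 cells, and 4027 of these were members, which is 8.03% of the bins with a state. The states of embryo 2 thus chose the members, and their values in embryo 2 are a description of the choice. Member bins covered 161 Mb. Chromosomes 6, 10, X and Y were not analysed here.

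DNA replication follows a timetable in which some regions of the genome are copied early in S phase and others late. In most mammalian cells, late-replicating DNA is poor in genes, rich in A and T, lies at the nuclear periphery and is transcribed little. Genes with long introns that act in neurons and clusters of sensory receptor genes are common in such DNA.

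The study obtained the embryos from C57BL/6 mice by in vitro fertilisation and separated the blastomeres by hand. RNA and DNA came from the same cell, and both were analysed for 3 cells of embryo 1 (cells 1, 6 and 7) and 6 cells of embryo 2 (cells 2, 3, 5, 6, 7 and 8). The study classed representative embryo 1 cells as G1 or G2/M and described S-phase copy numbers in representative embryo 2 cells. Every embryo 2 cell used here had both replicated and unreplicated bins, so embryo and cell cycle phase cannot be told apart. No treatment or genotype separates the groups, and each embryo is 1 animal, so differences between embryos have no replicate check and were not tested. The numbers that close the sample titles, called tube numbers here, fall in the ranges 11 to 17 (3 cells) and 20 to 25 (6 cells). Each range holds cells of both embryos, and the labels do not say what the ranges stand for. RNA values are TPM, relative amounts of RNA within a cell that are corrected for transcript length. They keep no read depth, and a gene with no signal is called listed at 0.

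All 8 genes chosen to mark cells of the embryo (Pou5f1, Nanog, Klf5, Tead4, Tfap2c, Dppa3, Zp3 and Gdf9) exceeded 1 TPM in all 9 cells. Not all of them are particular to the 8-cell stage. The summed level of the 8 was 1866 to 3064 TPM over embryo 1 cells and 1767 to 2466 TPM over embryo 2 cells. Dppa3 alone ranged from 1138 to 2169 TPM over the 9 cells. Of 8 cumulus cell markers 5 were listed at 0 in every cell, and 1 (Ptx3, 6.13 TPM in 1 cell) passed 1 TPM. Of 6 sperm markers 4 were listed at 0 in every cell, and the summed level of the 6 did not exceed 1.62 TPM. Prm1 passed 1 TPM in 2 cells (highest 1.62 TPM) and Prm2 in 1 cell (1.2 TPM).

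As examples of the DNA left unreplicated, 300 bases at the middle of the 3 longest runs of member bins are printed below. They are given on the plus strand of mm10 (RefSeq assembly GRCm38.p6), with each CpG dinucleotide in capitals. The first, chr16:67299851-67300150, lies in an intron of Cadm2. The second, chr7:94879851-94880150, and the third, chr3:124999851-125000150, overlap no annotated gene.
Chromosome 16: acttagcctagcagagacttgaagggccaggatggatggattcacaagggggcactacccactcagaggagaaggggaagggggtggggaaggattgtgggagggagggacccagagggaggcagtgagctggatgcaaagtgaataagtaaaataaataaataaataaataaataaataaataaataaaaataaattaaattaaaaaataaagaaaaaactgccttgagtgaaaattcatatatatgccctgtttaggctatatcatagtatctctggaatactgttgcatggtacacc
Chromosome 7: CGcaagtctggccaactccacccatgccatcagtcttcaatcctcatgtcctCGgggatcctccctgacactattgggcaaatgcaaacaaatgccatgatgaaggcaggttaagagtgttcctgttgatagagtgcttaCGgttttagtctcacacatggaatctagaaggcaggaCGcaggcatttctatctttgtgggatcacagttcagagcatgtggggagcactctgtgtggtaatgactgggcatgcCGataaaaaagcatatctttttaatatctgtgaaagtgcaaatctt
Chromosome 3: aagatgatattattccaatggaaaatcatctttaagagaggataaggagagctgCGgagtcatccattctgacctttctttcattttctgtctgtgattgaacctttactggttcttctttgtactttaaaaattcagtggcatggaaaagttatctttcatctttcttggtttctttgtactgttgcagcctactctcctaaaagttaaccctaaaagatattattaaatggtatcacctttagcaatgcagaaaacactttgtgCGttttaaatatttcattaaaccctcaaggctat

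The chromosome 16 window held 0 CpG and was 39.0% G+C, with 57% of its bases masked as repeats. The chromosome 7 window held 5 CpG at 46.0% G+C, well above the 38.2% of its whole run of member bins, so it is not typical of it. The chromosome 3 window held 2 CpG at 34.0% G+C. These windows can be set against the stretches of 250 bases before a RefSeq start of 3 protein-coding genes in member bins, which are the genes with the highest RNA levels that the RefSeq promoter table holds (8 of the 12 highest had an entry). They are printed on the strand of the gene, again with CpG in capitals. Pelo, at chr13:115090159-115090408 on the minus strand, encodes a factor that rescues stalled ribosomes. Fam174a, at chr1:95313378-95313627 on the plus strand, encodes a small membrane protein. Aim2, at chr1:173420354-173420603 on the plus strand, encodes a sensor of cytosolic DNA. Its window precedes a RefSeq start that lies inside the longer GENCODE gene (chr1:173350879-173466040) and overlaps an exon of it, so it is not the sequence before the start site that placed Aim2 in a member bin.
Pelo: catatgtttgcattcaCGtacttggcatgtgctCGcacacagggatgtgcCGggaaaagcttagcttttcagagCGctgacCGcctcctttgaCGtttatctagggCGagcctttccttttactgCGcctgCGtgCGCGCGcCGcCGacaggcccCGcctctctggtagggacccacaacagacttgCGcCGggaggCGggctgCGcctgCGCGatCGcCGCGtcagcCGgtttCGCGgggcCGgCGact
Fam174a: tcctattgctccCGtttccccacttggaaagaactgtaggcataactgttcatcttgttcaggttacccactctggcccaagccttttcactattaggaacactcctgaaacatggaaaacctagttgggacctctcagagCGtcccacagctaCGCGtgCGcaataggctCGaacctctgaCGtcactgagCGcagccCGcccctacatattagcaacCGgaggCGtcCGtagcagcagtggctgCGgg
Aim2: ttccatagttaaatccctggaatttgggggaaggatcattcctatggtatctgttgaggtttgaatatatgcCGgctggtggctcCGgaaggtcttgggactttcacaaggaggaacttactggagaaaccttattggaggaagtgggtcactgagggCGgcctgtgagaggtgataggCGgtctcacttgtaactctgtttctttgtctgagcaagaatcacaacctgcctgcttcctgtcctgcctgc

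The 250 bases before Pelo held 29 CpG, those before Fam174a 13 and those before Aim2 4. The Pelo window also overlaps exons of Gm49395 and Gm10734 and an intron of Itga1. Over all 461 RefSeq start windows of 300 bases in member bins, the median was 3 CpG and 22.3% held at least 10. In the 17914 windows of bins replicated in all 6 cells the median was 9 and 49.1% held at least 10, and over all 26356 windows in bins with a state 45.1% did. Bins replicated in 1 cell had a lower share than the members, 13.7% of 439 windows.

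The first question was where the bins lie. Every chromosome of the table held members, between 3.80% of the bins of chromosome 15 and 16.7% of those of chromosome 16. The 4 chromosomes with the highest shares, 16, 5, 1 and 3 (16.7%, 12.1%, 11.7% and 10.4%), held 43.1% of all members and 28.1% of the bins with a state. Chromosomes 15, 13 and 9 had the lowest shares (3.80%, 4.18% and 4.58%). Mouse chromosomes carry their centromere at the end where positions start. With each chromosome divided into 4 stretches of equal length, 2.34% of bins were members in the stretch next to that end, against 9.13%, 12.2% and 8.48% in the following ones.

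**Figure D1:**
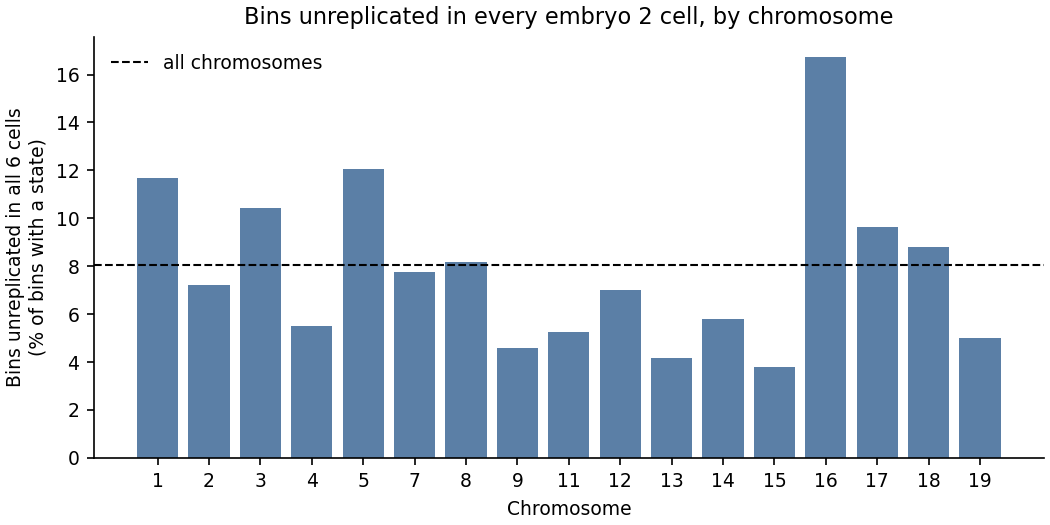
Share of bins that were unreplicated in all 6 embryo 2 cells (y axis, % of bins called in all 6) on each chromosome of the table (x axis); the dashed line is the share over all chromosomes, 8.03%. Chromosome 16 stands highest at 16.7% and chromosome 15 lowest at 3.80%.

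Because the choice fixes all members as unreplicated in every cell, the share that they took of the unreplicated bins of a cell only restates how many such bins it had. Unreplicated bins numbered 11515, 13359, 11963, 19078, 10093 and 11043 in embryo 2 cells 2, 3, 5, 6, 7 and 8. Members were 21.1% of the unreplicated bins of cell 6, which had replicated least, and 39.9% of those of cell 7, which had replicated most. Just outside the choice were 2708 bins replicated in 1 cell. That cell was cell 7 for 728 bins, cell 8 for 558, cell 3 for 479, cell 2 for 362, cell 6 for 353 and cell 5 for 228. Cell 6 was thus the only replicated cell in 353 bins although it had the fewest replicated bins of the 6. Using only the 2 cells with tube numbers 11 to 17 gave 8331 bins, and using only the 4 cells with tube numbers 20 to 25 gave 5030.

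The same bins were examined in embryo 1, whose states the choice did not use. Cells outside S phase had served to correct the mappability of the S-phase cells, so embryo 1 was not wholly independent of the choice. Cell 7 of embryo 1 had all 4027 members unreplicated, and cell 6 had 6 members called replicated (0.149%). Cell 1 had 133 called replicated (3.30%) and 1 without data. Of these 133 bins, 130 were on chromosome 7, 2 on chromosome 16 and 1 on chromosome 1. The study described uniform copy numbers in representative embryo 1 cells, apart from regions with chromosomal abnormalities. Whether the chromosome 7 bins belong to such a region was not tested, so the call replicated need not mean replication here. Over all bins with a state the replicated shares of the 3 cells were 0.0039%, 0.927% and 3.54% for cells 7, 6 and 1. The state -1 in a cell whose bins all have the same copy number does not tell whether replication has not begun or is complete, so these cells cannot show when the members are copied.

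Neighbouring member bins were joined into runs, called domains below. There were 327 domains, with a median length of 360 kb (quartiles 160 and 680 kb). Single bins made 21 of them, and 285 held at least 3 bins. The 42 domains of 1 Mb or more held 1526 bins, 37.9% of the members. A hidden Markov model, which takes neighbouring bins into account, called the states, and bins without data can split a domain. Bridging bins that are missing or without data left 300 domains with the same median.

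Domains mostly bordered bins that were replicated in few cells. The bin next to a domain was replicated in 1 cell at 478 of the 654 domain ends (73.1%), in 2 cells at 76 ends, in 3 cells at 10 ends and in 4 cells at 2 ends. No end touched a bin replicated in 5 or 6 cells, and 88 ends touched a bin without a state or no bin. Moving outward from the ends, the mean number of cells in which a bin was replicated was 1.18 at 40 kb, 1.95 at 200 kb, 2.48 at 400 kb, 3.24 at 1000 kb and 3.80 at 2000 kb. The nearest bin replicated in all 6 cells was a median of 880 kb away (quartiles 400 and 1820 kb) and at most 8800 kb.

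**Figure D2:**
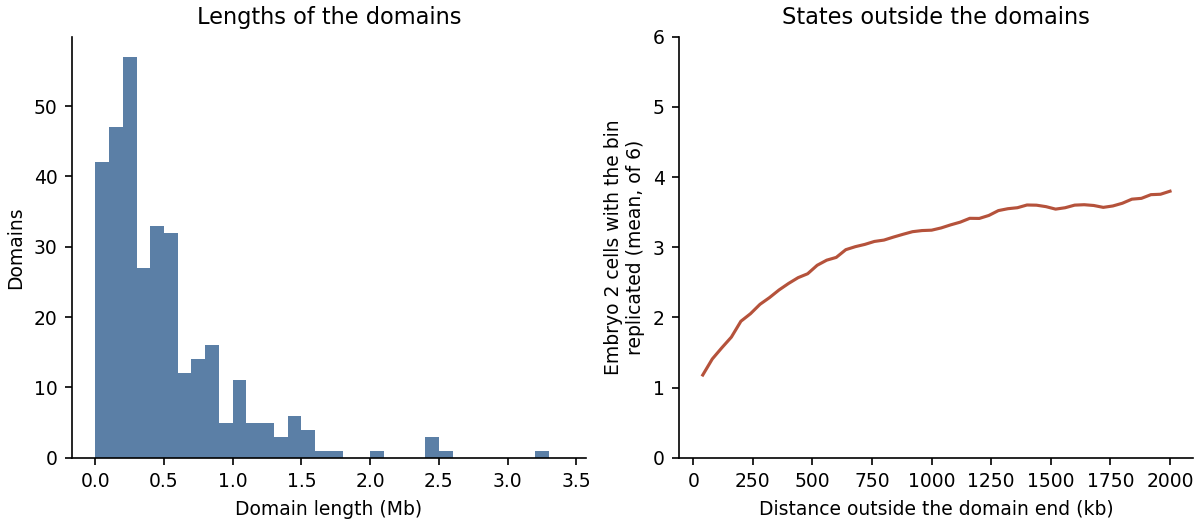
Left, number of domains (y axis) by length in Mb (x axis, 0.1-Mb steps). Right, mean number of embryo 2 cells (of 6) in which a bin was replicated (y axis) against its distance from the domain end in kb (x axis), over all ends. Most domains are shorter than 1 Mb with 1 of 3.24 Mb, and the mean number of cells is 1.18 at 40 kb and 3.80 at 2000 kb.

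The longest domain was 3.24 Mb on chromosome 16 (chr16:65680001-68920000, 81 bins). It holds the start sites of 19 annotated genes, and 2 of them are protein-coding: Vgll3, a cofactor of TEAD transcription factors, listed at 0 in all cells, and Cadm2, a synaptic adhesion molecule, whose highest value was 0.07 TPM. The next was 2.56 Mb on chromosome 7 (chr7:93600001-96160000) and holds 12 gene starts, none protein-coding. Its highest mean was 0.286 TPM, for Gm44601.

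Both chromosome 3 (chr3:123760001-126240000) and chromosome 4 (chr4:78000001-80480000) had a domain of 2.48 Mb. The chromosome 3 domain holds 5 protein-coding starts. Tram1l1, 1700006A11Rik, 1700003H04Rik and Ndst4 (a heparan sulphate modifying enzyme) were listed at 0 in all cells, and Ugt8a, an enzyme of myelin lipid synthesis, reached 2.74 TPM. The chromosome 4 domain holds 1 protein-coding start, that of the receptor phosphatase gene Ptprd, listed at 0 in all cells. A lincRNA there, Gm11261, exceeded 1 TPM in all 9 cells, with a mean of 12.7 TPM and a highest value of 28.8 TPM. The fifth domain, 2.44 Mb on chromosome 17, holds among others the starts of Fshr (the receptor of follicle-stimulating hormone, listed at 0 in all cells) and Gm10184.

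Member bins held few genes. The start sites of 1330 annotated genes lay in them, which is 3.17% of the 41978 genes in bins with a state, and of these 199 were protein-coding, 1.13% of 17560. The members are 8.03% of the bins. Gene density was 8.26 starts per Mb in members, 9.57 in bins replicated in 1 cell and 27.1 in bins replicated in all 6. For protein-coding genes it was 1.24, 2.31 and 12.5 per Mb. It was not even along the number of replicated cells, at 2.05 per Mb in bins replicated in 2 cells. No gene body overlapped 56.2% of member bins, against 14.2% of bins replicated in all 6 cells, and a protein-coding gene body overlapped 22.6% against 71%. Of the 327 domains, 237 (72.5%) held no protein-coding start and 65 held no gene start of any kind.

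Members were 37.7% G+C with 5.29 CpG per kb, and 38.3% of their bases were masked as repeats. Bins replicated in 1 cell were close to this, at 38.0%, 5.49 per kb and 38.1%. Bins replicated in all 6 cells were 43.9% G+C with 10.1 CpG per kb and 30.7% masked. The G+C of single member bins was 37.7% ± 1.72 (SD between 4027 bins), and 2.68% of them lay above the median of all bins with a state.

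**Figure D3:**
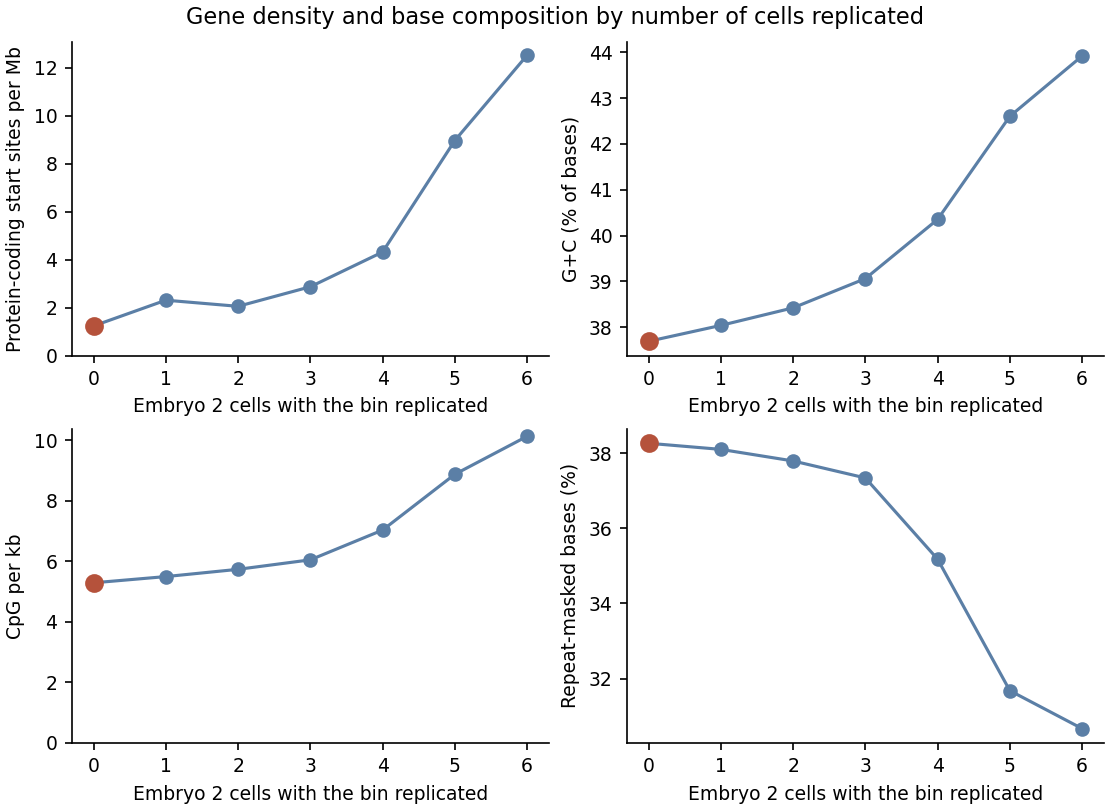
Protein-coding start sites per Mb, G+C (% of bases), CpG per kb and repeat-masked bases (%) (y axes) of bins grouped by the number of embryo 2 cells in which they were replicated (x axis, 0 to 6); the members are the larger red points at 0, and the G+C and repeat axes do not start at 0. G+C is 37.7% at 0 and 43.9% at 6, CpG is 5.29 and 10.1 per kb, and masked bases are 38.3% and 30.7%.

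Protein-coding genes made 15% of the member genes and 46.2% of the genes in bins replicated in all 6 cells. Processed pseudogenes, copies of spliced RNA inserted in the genome, were the most frequent biotype of the members with 436 genes. There were 178 lincRNA genes, 140 loci awaiting experimental support (TEC), 72 miRNA genes and 64 snoRNA genes. Members held 63 of 197 immunoglobulin V genes and pseudogenes that could be placed, all on chromosome 12, where the heavy chain locus lies, and all 63 were listed at 0 in all cells. This list was chosen after its values were seen.

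The 4 domains with the most protein-coding starts held 73 of the 199 protein-coding members (36.7%). No matching share for other bins is given here. A 1.28-Mb domain on chromosome 7 (chr7:85480001-86760000) held 22, which were 7 Vmn2r vomeronasal receptor genes and 15 olfactory receptor genes. A 0.56-Mb domain on chromosome 9 held 19, of which all but Vwa5a were olfactory receptor genes. A 0.32-Mb domain on chromosome 3 (chr3:92280001-92600000) held 17, among them Sprr genes and Ivl, which encode proteins of the cornified envelope of skin, Smcp, which encodes a sperm mitochondrial protein, and Gm9774. A 0.72-Mb domain on chromosome 1 (chr1:173200001-173920000) held 15. Among them were 9 genes of the PYHIN family, interferon-inducible DNA sensors, out of 13 in bins with a state. This family, too, was singled out after its values were seen. Aim2 and Ifi213 passed 1 TPM in at least 1 cell, and the other 7 did not.

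Gene families were counted by symbol against the background of 1.13% of protein-coding genes. Members held 35 of 995 olfactory receptor genes (3.52%) and 12 of 185 vomeronasal receptor genes (6.49%). Bins replicated in 1 cell, although fewer, held 84 of the olfactory and 3 of the vomeronasal receptor genes. Bins replicated in all 6 cells held far more, 464 of the olfactory (46.6%) and 126 of the vomeronasal receptor genes (68.1%). Of all 17560 protein-coding genes they held 12221. Members held 10 of 56 synaptic and axonal adhesion genes (17.9%), and bins replicated in 1 cell held 7. Among the 10 were Adgrl3, Lsamp, Ptprd, Robo2, Sema3a and Tenm2. Of 34 receptors for glutamate, GABA and glycine, members held 6 (17.6%) and bins replicated in 1 cell held 2. Among the 6 were the GABA receptor subunits Gabra2 and Gabrg1 and the glutamate receptor subunit Gria2. Several of these lie side by side and share domains, so their counts are not independent. Cadherins and protocadherins gave 5 of 83 (Cdh7, Cdh8, Cdh20, Pcdh7 and Pcdh18), ion channels 4 of 102 (Kcnh7, Kcnip4, Kcnj2 and Kcnj16) and the Hox, Sox, Pax and Fox factors 1 of 83 (Foxa2).

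No member was found among 306 Zfp genes, 73 cytosolic ribosomal protein genes, 46 replication-dependent histone genes, 58 genes of the 2-cell and oocyte families, 107 keratin and keratin-associated genes, 93 cytochrome P450 genes, 62 defensins, 57 serpins or 25 prolactin family genes. The same was true of 18 type I interferon genes, 7 C-type lectin and killer receptor genes, 6 Speer genes and 5 taste and trace amine receptor genes. At the share of 1.13% a count of 0 says little for nearly all of these families, of which the 306 Zfp genes were by far the largest. None of these counts was tested. Of the interferon and Speer genes, none lay in bins replicated in all 6 cells either.

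RNA of the families in member bins was sparse. None of the 35 olfactory receptor genes passed 1 TPM in any cell (highest mean 0.131 TPM, Olfr293). Among vomeronasal receptors, Vmn2r75 (4.28 TPM in its highest cell, mean 0.489 TPM) and Vmn2r76 (1.2 TPM) did so in 1 cell each. Adgrl3 was the only synaptic adhesion gene of the 10 to pass it (mean 1.28 TPM). The transmitter receptors reached at most 0.5 TPM (highest mean 0.126 TPM, Gabra2), the ion channels at most 0.14 TPM (highest mean 0.056 TPM, Kcnh7), and the 5 cadherins and Foxa2 were listed at 0 in all cells.

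Detection of RNA, which the choice of bins did not use, was low for member genes in all 9 cells. With TPM above 1 counted as detected, 133 of the 1330 member genes (10.0%) were detected in at least 1 of the 9 cells, against 38.3% of all genes in bins with a state. Detection in all 9 cells was seen for 7 (0.526%), against 14.5%. Of the 199 protein-coding members 22 (11.1%) were detected in at least 1 cell, against 62.7% of all protein-coding genes, and only Pelo in all 9, against 32.5%. No signal in any cell was listed for 1118 member genes (84.1%) and for 150 protein-coding members (75.4%).

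Per cell, 12, 11 and 7 protein-coding members were detected in embryo 1 cells 1, 6 and 7, and 7, 4, 8, 10, 6 and 12 in embryo 2 cells 2, 3, 5, 6, 7 and 8. For embryo 1 this is 5.03% ± 1.33 (SD, n = 3 cells) of the 199, for embryo 2 it is 3.94% ± 1.44 (SD, n = 6 cells), and the cells of the embryos overlapped. In bins replicated in 1 cell the share was 6.53% ± 0.611 and 5.60% ± 0.876, and in bins replicated in all 6 cells it was 52.1% ± 3.64 and 50.6% ± 2.70. The 9 cells ranged from 2.01% to 6.03% in members and from 47.3% to 55.9% in bins replicated in all 6. The members overlapped the bins replicated in 1 cell, which ranged from 4.8% to 7.2%. Between 3 and 4 replicated cells, the embryo 2 share went from 7.76% ± 0.749 to 24% ± 1.25. By place within a domain, 10.0% of the 60 protein-coding genes within 2 bins of a domain end were detected in at least 1 cell, and 11.5% of the 139 further inside.

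**Figure D4:**
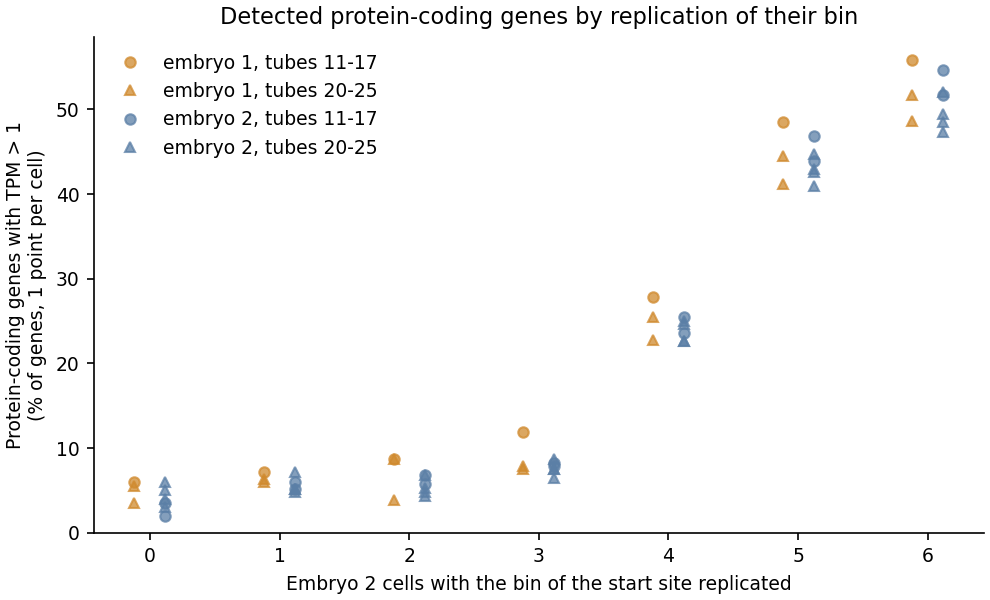
Share of protein-coding genes with TPM above 1 (y axis, % of genes, 1 point per cell) by the number of embryo 2 cells in which the bin of the start site was replicated (x axis); orange is embryo 1, blue embryo 2, circles are tube numbers 11 to 17 and triangles 20 to 25. Genes of the members, at 0, lie between 2.01% and 6.03% in every cell, and genes at 6 between 47.3% and 55.9%.

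Member genes took between 0.483% and 1.94% of the TPM total of a cell, with means of 1.3% ± 0.149 (SD, n = 3 cells) for embryo 1 and 1.14% ± 0.483 (SD, n = 6 cells) for embryo 2. Nearly all of this was 1 gene, CT010467.1, annotated as ribosomal RNA at chr17:39846353-39848827. Its TPM was 10221, 12714 and 11097 in embryo 1 cells and 3474 to 17688 (median 9899) in embryo 2 cells. Ribosomal RNA genes are repeated in the genome, and this gene overlaps 2 further annotated genes (Gm42418 and AY036118), so its reads cannot be assigned to this bin with confidence. Without it, member genes took 0.165% ± 0.0765 of the TPM in embryo 1 and 0.152% ± 0.0605 in embryo 2. Protein-coding members alone took 0.0170% ± 0.0104 and 0.0132% ± 0.00788. Protein-coding genes of bins replicated in all 6 cells took 45.6% ± 0.424 and 44.1% ± 2.75.

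The summed TPM of protein-coding members moved with the tube numbers. It was 95.25, 65.98 and 32.81 TPM in the 3 cells numbered 11 to 17 (embryo 1 cell 1 and embryo 2 cells 2 and 3) and 118.4 to 289.2 TPM in the 6 cells numbered 20 to 25. The ranges did not overlap, and this split divides both embryos. The gap rested on Gm10184, at 0 to 26.65 TPM in the cells numbered 11 to 17 and 0 to 196.63 TPM in the others. The values of Gm10184 are uncertain, as said below, and without this gene the ranges of the sum overlap. The split was not particular to the members: protein-coding genes of bins replicated in 1 cell took 0.0129% to 0.0251% of the TPM in the cells numbered 11 to 17 and 0.0325% to 0.0878% in the others, again with no overlap.

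Among protein-coding members, the 12 with the highest mean TPM were Gm10184, Gm9774, Pelo, Gm49395, Gm21833, Fam174a, Aim2, Elavl2, Adgrl3, Itga1, Ifi213 and Ugt8a. Pelo (chr13:115088355-115090186, minus strand) was detected most evenly, at 58.66, 5.59 and 16.83 TPM in embryo 1 cells 1, 6 and 7 and 7.14 to 23.6 TPM (median 13.2) in embryo 2. Its means were 27.0 ± 28.0 TPM (SD, n = 3 cells) and 14.9 ± 6.87 TPM (SD, n = 6 cells). Both embryos overlapped, with the highest value in embryo 1 cell 1. Pelo lies inside Itga1, which encodes the alpha 1 integrin subunit, and inside Gm49395, on the same strand as both.

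Itga1 itself reached 2.87 TPM at most, with a mean of 1.19 TPM over 9 cells. Gm49395 had 3.2, 15.63 and 24.34 TPM in embryo 1 and 0 to 28.2 TPM (median 10.3) in embryo 2. Most of its signal was on 1 transcript of 2 exons (mean 13.1 TPM). Reads in any exons that overlap between 2 or more of these 3 genes could have been split between them, so their single values are uncertain. Gm49395 was also the 1 gene of 63 members with mean TPM above 1 that was lower in every cell numbered 11 to 17 than in every cell numbered 20 to 25 (1.59%, against 1.32% of 11175 genes). The ranges were 0 to 9.22 TPM and 9.42 to 28.2 TPM.

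Gm10184 (chr17:89908462-89910449), a gene model of 1 exon with no assigned function in its symbol, had the highest mean of the 12, 66.3 TPM. Its values were 5.34, 196.63 and 28.85 TPM in embryo 1 and 0 to 195 TPM (median 44.9) in embryo 2, where cells 3 and 5 were listed at 0. Gm9774 on chromosome 3 (chr3:92428032-92429423) had 4.43, 35.61 and 36.51 TPM in embryo 1 and 0 to 48.6 TPM (median 15.1) in embryo 2. Gm21833 on chromosome 16 (chr16:82828382-82829881), also of 1 exon, had 2.98, 10.52 and 2.09 TPM in embryo 1 and 0 to 45.2 TPM (median 3.62) in embryo 2. For all 3 genes the embryos overlapped. Unnamed gene models of this kind can be near copies of other genes, in which case reads are shared, and their values are uncertain.

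The remaining genes of the 12 were low and uneven. Fam174a (chr1:95313623-95335284) was at 3, 5.89 and 8.67 TPM in embryo 1 and 0 to 3.5 TPM (median 0.655) in embryo 2, with an overlap of the embryos between 3 and 3.5 TPM. Elavl2 (chr4:91250763-91400785), which encodes an RNA-binding protein of neurons and oocytes, was at 1.75, 2.08 and 7.46 TPM in embryo 1 and 0 to 5.07 TPM (median 0.59) in embryo 2. Differences in mean log2(TPM + 1), embryo 2 minus embryo 1, were -1.75 for Fam174a and -1.19 for Elavl2. For Fam174a 4 of the 6 embryo 2 cells lay below every embryo 1 cell, and for Elavl2 5 of the 6 did, so that the embryos overlapped in few cells.

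Aim2 passed 1 TPM in 2 cells, at 4.94 TPM in embryo 1 cell 1 and 14.3 TPM in embryo 2 cell 5, and its most abundant transcript was a processed transcript with no coding annotation. Ifi213, its PYHIN neighbour, ranged from 0.35 to 2.49 TPM over the embryo 1 cells and from 0.21 to 2.61 TPM over those of embryo 2. Adgrl3 (latrophilin 3, an adhesion receptor of synapses) was detected in 4 cells with a highest value of 4.88 TPM, most of it on a retained-intron transcript. Ugt8a was detected in 3 cells.

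**Figure D5:**
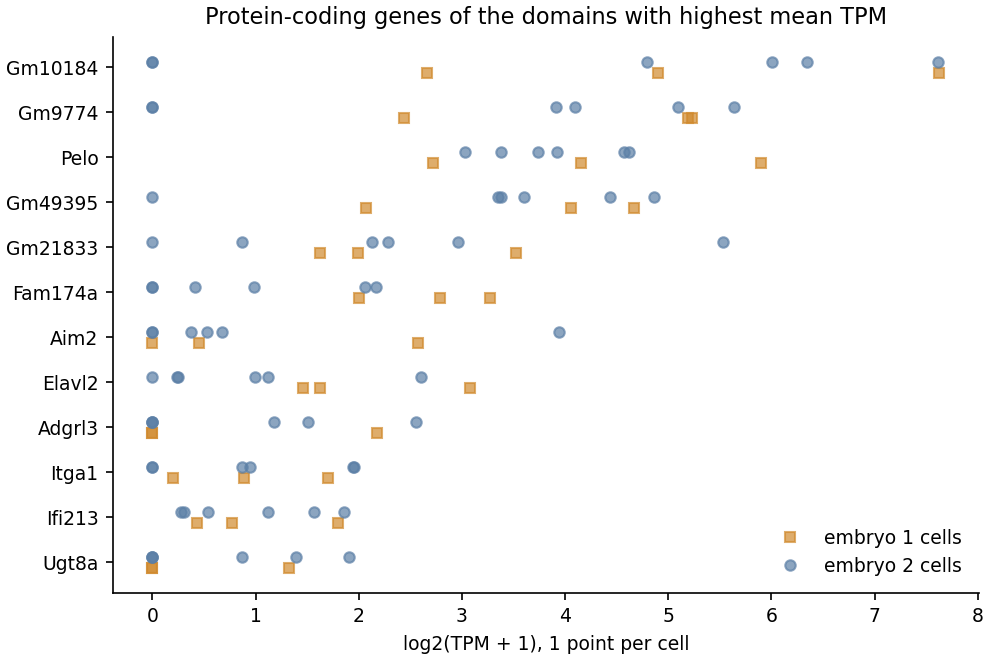
RNA level of the 12 protein-coding genes with start sites in member bins that had the highest mean TPM (y axis) as log2(TPM + 1) (x axis), 1 point per cell; orange squares are embryo 1 (3 cells), blue circles embryo 2 (6 cells). Pelo is above 0 in all 9 cells, whereas Gm10184, Gm9774 and Gm49395 are listed at 0 in 1 or more embryo 2 cells and the embryos overlap for every gene.

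The other 4 of the 5 highest genes without a protein-coding annotation were pseudogenes and 1 TEC locus. Gm42860 (TEC, chr5:60803716-60807706) was detected in all 9 cells, at 115.09, 133.77 and 83.64 TPM in embryo 1 and 90.7 to 243 TPM (median 189) in embryo 2. Gm9531 (chr9:81677598-81678677) was at 582.44, 486.04 and 68.63 TPM in embryo 1 and 0 to 481 TPM (median 153) in embryo 2. Gm9892 (chr8:52196065-52197056) was listed between 0 and 440 TPM over embryo 1 cells and between 0 and 404.5 TPM over those of embryo 2. Reads of a processed pseudogene and of its parent gene can be alike, so these values may include RNA made elsewhere.

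Gm4617, a processed pseudogene of 0.331 kb inside the chromosome 3 domain of 2.48 Mb (chr3:124385667-124385997), followed the tube numbers. It was at 679.15, 540.84 and 469.61 TPM in the 3 cells numbered 11 to 17 and at 0 to 3.88 TPM in the 6 cells numbered 20 to 25, with no overlap. With Gm6741 it was 1 of 2 members among 63 with mean TPM above 1 that were higher in every cell of the lower range (3.17%, against 6.37% of 11175 genes).

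The 10 longest protein-coding members, from 965 kb (Cadm2) to 2271 kb (Ptprd), included Lsamp, Lrp1b, Tenm2, Sgcz, Kcnip4, Erbb4 and Gpc6. Most encode adhesion molecules, receptors or channel partners of neurons. RNA was listed at 0 in all 9 cells for 7 of the 10, and no value of the 10 exceeded 0.2 TPM. Their gene bodies differed in how much of them was unreplicated in every cell. All 28 bins of Erbb4, a receptor of neuregulins, and all 25 of Cadm2 were members, as were 27 of 29 bins of Sgcz and 22 of 27 of Gpc6. Only part of the gene was a member for Tenm2 (13 of 31), Ptprd (10 of 58), Lrp1b (9 of 52), Lsamp (5 of 56) and Kcnip4 (1 of 30).

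Of 178 genes of 500 kb or more, 20 (11.2%) had their start site in members, against 1.13% of protein-coding genes. Of these 20, Adgrl3 alone passed 1 TPM in any cell. Members are 8.03% of the bins with a state, and the share of long genes in bins replicated in 1 or more cells is not given here. The median length of all protein-coding members was 19.7 kb, against 9.17 kb in bins replicated in 1 cell and 18.5 kb in bins replicated in all 6, so the long genes are a minority of the members.

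Finally, member genes were compared between the embryos, since embryo 2 cells had mixed replication states and embryo 1 cells had nearly uniform ones. Of 63 member genes with mean TPM above 1, no gene had every embryo 2 cell above every embryo 1 cell (0.823% of 11175 genes did) and no gene had every embryo 2 cell below (2.42% did). The median difference in mean log2(TPM + 1), embryo 2 minus embryo 1, was 0.21 (quartiles -0.69 and 0.58), with 34 genes higher and 29 lower. Over all 11175 genes it was -0.05. Leaving out cell 7 of embryo 1 made the median of the members -0.16, and leaving out cell 8 of embryo 2 made it 0.0029, which shows that single cells set its sign. For the 11 protein-coding members of the 63 it was -0.32, with 2 higher and 9 lower.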

How the data were processed

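RNA and DNA of single blastomeres of mouse 8-cell embryos were profiled by scRR-seq. The labels describe 13 cells, of which 9 have columns and were used, and 14 further columns per table carried no label of this series and were not used. For scRR-seq-DNA, the authors set all cells to a common number of reads, aligned them to mm10 with BWA 0.7.17-r1188, removed blacklisted regions, used cells of the embryos outside S phase to correct mappability, and called 2 states in AneuFinder by a hidden Markov model. They deposited these states as a score per 40-kb bin. For scRR-seq-RNA, the authors aligned a common number of reads with Hisat and deposited TPM values estimated by RSEM against GENCODE within ramdaq. Neither unit keeps read depth, so no interval was computed for a state or a TPM value. Whether counting used strand was not given in the sources used here.

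RNA columns were matched to samples by the number that closes each header, because the embryo and cell in the headers were the same for all 9. Of 55487 genes, 55141 had a position in GENCODE M21, which uses the same build, and a gene belonged to the bin of its start site. TPM above 1 counted as detected, and differences between embryos used log2(TPM + 1), which understates changes of low genes. Genes were named by a rule: the genes of the 5 longest domains, the 12 protein-coding and 5 other member genes with the highest mean TPM, and the 10 longest. Some genes that this rule names are not reported here. The member bins, gene families and rules were chosen with earlier results of these data known. Nothing was tested, since cells are not replicates of an embryo, and SDs describe the spread between cells. Sequences came from RefSeq (GRCm38.p6). The functions that join bins and compute differences were tested on simulated data. Analyses used Python 3.11.15, numpy 2.4.6, pandas 2.3.3, scipy 1.17.1 and matplotlib 3.10.9. Alternatives were other sets of cells, thresholds, pseudocounts, gene placements and the leaving out of single cells. One alternative, using only genes with more than 1 exon, was added after the data were seen.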

Additional observations from a re-analysis of the deposited data

Results flagged for a closer look

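Of 22 measures examined over the 6 embryo 2 cells, 6 had 1 cell far from the other 5 by Dixon's criterion. Chance alone would give about 1 in 20 for normally distributed values. Most of the flagged measures are TPM values of uneven genes that were chosen for a high mean. The number flagged therefore cannot be read as an excess over chance. Embryo 2 cell 6 had 19078 unreplicated bins, against 13359 in the next cell and 10093 in the lowest. It was the cell with the smallest share of replicated bins, and without it the member bins would number 4963.

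In embryo 2 cell 8, 2.78% of member genes were detected, below the 3.31% to 3.53% of the other 5 cells, although its 12 detected protein-coding members were the highest number in embryo 2. In embryo 2 cell 5, Gm21833 stood at 45.2 TPM with the next cell at 6.79 TPM, Aim2 at 14.3 TPM with the next at 0.6 TPM, and Gm9892 at 404.5 TPM with the next at 136.8 TPM. In embryo 2 cell 2, Elavl2 stood at 5.07 TPM with the next at 1.18 TPM. Each of these genes was also above 1 TPM in at least 1 embryo 1 cell.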

How the results depend on the processing

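Of 73 values recomputed under an alternative for 11 results, 57 stayed within the spread between cells, the 95% binomial interval of a share or density or 1.5 times the count, and 16 moved. The median difference between embryos changed sign in 1 of these, without embryo 1 cell 7. Leaving out each embryo 2 cell in turn gave 4255 to 4963 member bins, 8.06 to 8.73 genes per Mb and 1.16 to 1.53 protein-coding genes per Mb. The 2 cells numbered 11 to 17 alone gave 8331 bins, as fewer cells must give more. Protein-coding density was 1.02 per Mb for genes wholly in member bins. The detected share of member genes in embryo 2 was 3.26% to 3.41% without each cell, 4.99% at TPM above 0.1, 1.77% at TPM above 5 and 3.94% for protein-coding genes. The latter was 3.57% for genes with more than 1 exon. The share of TPM was 0.983% to 1.27% without each cell, 0.0132% for protein-coding genes and 0.152% without CT010467.1. The median difference between embryos was -0.16 to 0.28 without each cell, 0 with no filter and 0 among cells numbered 11 to 17; beyond the fewer cells or other genes used, the cause was not tested. No paired analysis was possible because cell numbers do not link cells of different embryos and no test was made. Depth is not kept by either table, so a gene listed at 0 may have RNA below detection.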
